A study of Mus musculus with 14 samples.

Results

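Genes of 3 related families were measured on mouse whole-genome arrays: the matrix metalloproteinases (MMPs), the ADAMTS proteases with their ADAMTS-like relatives, and the tissue inhibitors of metalloproteinases (TIMPs). Members were all non-control probes whose gene name starts with Mmp, Timp or Adamts followed by a digit or the letter l. The rule found 82 probes of 41174, for 48 genes: 21 MMPs, 18 ADAMTS proteases, 5 ADAMTS-like genes and 4 TIMPs. Where a gene had several probes, the one with the highest mean over all arrays stood for it.

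The cells were bone marrow-derived mast cells (BMMCs), immature mast cells grown from mouse marrow for 4 to 6 weeks with IL-3, and the same kind of cells after 96 h on a monolayer of Swiss 3T3 cells, a mouse fibroblast line, with stem cell factor at 100 ng/ml. The 4 groups held, in arrays, Pla2g3-/- cocultured cells (3), Pla2g3+/+ cocultured cells (4), Pla2g3-/- BMMCs (4) and Pla2g3+/+ BMMCs (3), all of strain C57BL/6.129Sv-N3. Pla2g3 encodes the group III secreted phospholipase A2. The comparisons ask what coculture changes and whether this differs between the genotypes. After coculture the dishes were treated with trypsin, the cells were replated and those that did not attach were taken, with a stated share of Kit and FcεRIα positive cells over 99% by flow cytometry, against over 97% for BMMCs. The labels do not say whether arrays of a group came from separate mice, so p-values measure the spread between these arrays, which may be technical.

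MMPs and ADAMTS proteases are secreted or membrane-bound zinc enzymes that cut extracellular matrix. Most are made as inactive precursors. Several MMPs are induced by cytokines through AP-1 and ETS factors, and MMPs are blocked by TIMPs, which bind the active site. ADAMTS-like proteins share the matrix-binding modules of ADAMTS proteases but lack the protease domain. In tissues, fibroblasts are a main source of MMPs, while mast cells are known above all for serine proteases, which can activate MMP precursors.

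A level below is a log2 signal minus the 75th percentile of its array, where it would be 0, and probes differ in brightness, so levels are compared between arrays and not between genes. Between 42.6% and 55.9% of probes per array were well above background, the scanner software's own flag, and precision is limited by how few arrays a group holds. Of 10 mast cell markers listed, 9 were tested. These 9 were above background on each of the 14 arrays, at a mean level of 5.9 to 7.1. The Pla2g3 probe (A_51_P402868) went against the genotype labels. Its level was -1.37, -1.27, -1.56 and -1.92 on the BMMC arrays labelled knockout, against -3.71, -4.63 and -2.91 on those labelled wild-type, a log2 difference of 2.22 (SE 0.54, adjusted p = 1). In cocultured cells it was -3.13, -1.70 and -1.88 on arrays labelled knockout, against -4.23, -3.15, -4.07 and -2.13 on arrays labelled wild-type. The sources used here do not say which part of the gene was deleted, so the probe may lie outside it and then checks nothing. Genotypes below are therefore those of the labels, and directions between them rest on the labels alone. The libraries labelled knockout cocultured 3 and wild-type cocultured 3, which shared slide 4, stood apart. Across 15848 genes, deviations from the mean of the cocultured arrays correlated on average at -0.55 with the same label and 0.03 with the other label for knockout cocultured 3, and at -0.57 and 0.22 for wild-type cocultured 3. For wild-type cocultured 1 these averages were -0.18 and -0.13, and each remaining cocultured array correlated better with its own label. Slide 4, which also held knockout BMMC 4, was scanned on a later day than the other slides. Whether the labels of the 2 cocultured arrays of slide 4 are exchanged was not tested, nor was the part of the scan day. Results are given with and without this pair.

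Of the 48 genes, 28 were well above background on at least 3 arrays and were tested: 9 MMPs, 11 ADAMTS proteases, 4 ADAMTS-like genes and 4 TIMPs. On 0 of 14 arrays above background were 11 genes: Mmp1a, Mmp7, Mmp16, Mmp20, Mmp21, Mmp25, Adamts3, Adamts8, Adamts13, Adamts16 and Adamts19. Another 9 were above it on 1 or 2 arrays only and were not tested either. These were Mmp3, Mmp10, Mmp15, Mmp19, Mmp23, Mmp28, Adamts7, Adamts18 and Adamtsl2. At the other end, 8 genes were above background on all 14 arrays with the chosen probe: Timp1, Mmp17, Adamts1, Adamts4, Adamts5, Adamts10, Adamts14 and Adamtsl3. The other probe was above background on 14 arrays for Adamtsl3, 8 for Adamts10, 7 for Timp1 and 6 for Adamts1. It was above background on 1 array for Adamts5 and for Mmp17 and on 0 for Adamts14, while Adamts4 had 1 probe. The number of members above background was 15 to 21 in knockout cocultured cells, 16 to 27 in wild-type cocultured cells, 16 to 21 in knockout BMMCs and 16 to 23 in wild-type BMMCs. The highest count, 27, was on wild-type cocultured 2.

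**Figure D1:**
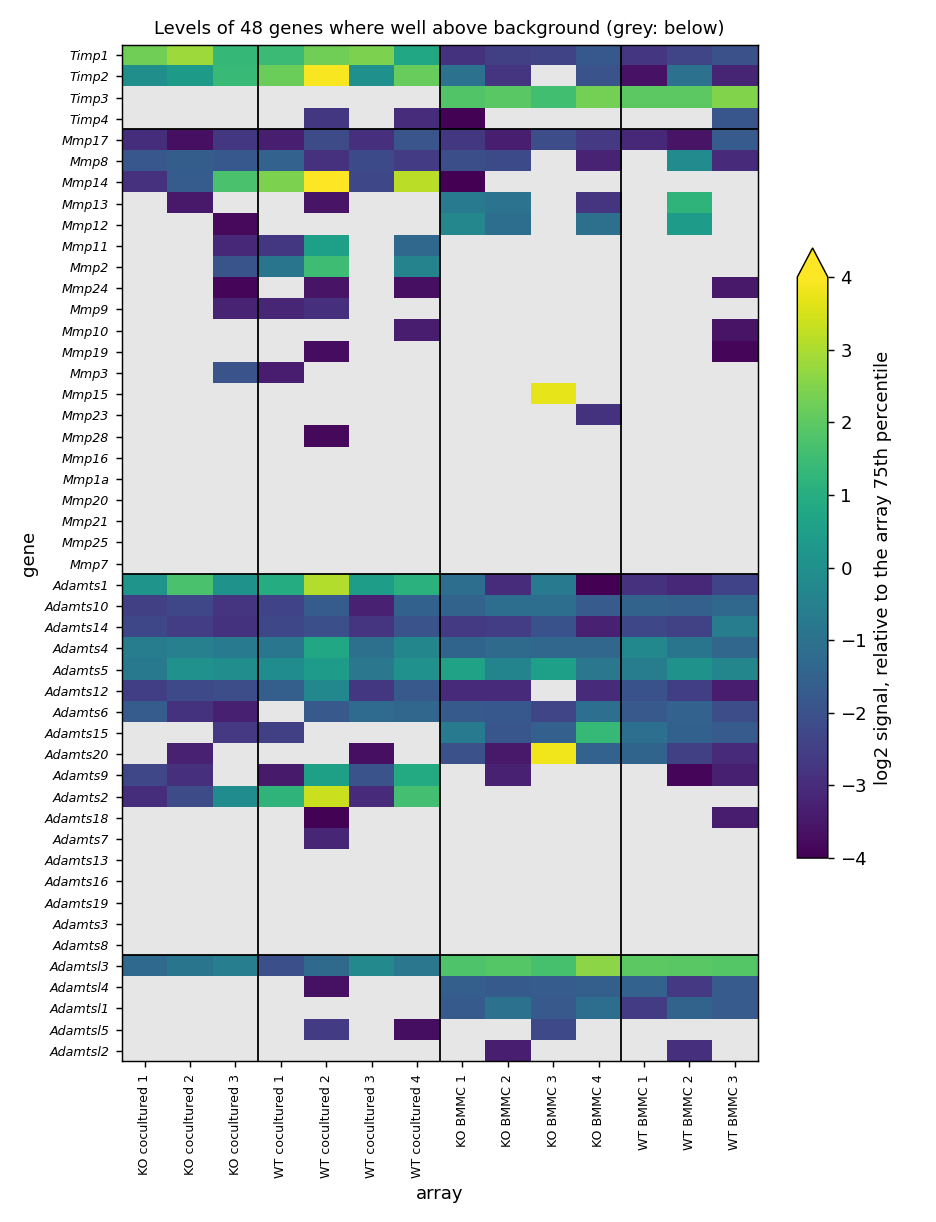
Level of each of the 48 genes (rows, grouped as TIMPs, MMPs, ADAMTS proteases and ADAMTS-like genes) on each of the 14 arrays (columns, grouped by coculture and genotype label), in log2 signal relative to the 75th percentile of the array. Colour is drawn only where the probe was well above background and the remaining cells are grey, so that Timp3, Adamtsl1 and most Adamtsl4 cells are coloured in BMMCs and grey after coculture, while Adamts2 shows the reverse.

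Sequences of 3 kinds are printed here for reference. The first are the array probes that read Timp1, an inhibitor that rose after coculture in both genotypes. Both lie on the plus strand of mm9, at chrX:20451675-20451733 for A_52_P87713 and chrX:20449905-20449964 for A_51_P512384, and both are shown whole because they read the same gene at different positions. No letter is in capitals.
A_52_P87713: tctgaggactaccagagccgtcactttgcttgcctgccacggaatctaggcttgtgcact
A_51_P512384: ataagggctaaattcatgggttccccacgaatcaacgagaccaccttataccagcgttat

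The second are the 250 bases before the annotated start of Timp1, of Timp3, which fell below background after coculture, and of Mmp14, the MMP with the largest difference in wild-type cells. They are RefSeq sequences on GRCm38.p6, each on the plus strand: Timp1 at chrX:20869916-20870165, Timp3 at chr10:86300162-86300411 and Mmp14 at chr14:54431348-54431597. They were searched on both strands for TGANTCA, a loose form of the AP-1 core TGAGTCA or TGACTCA, and for TATAAA. They hold neither, so no letter is in capitals. The 2 motifs do not overlap in any window printed here.
Timp1: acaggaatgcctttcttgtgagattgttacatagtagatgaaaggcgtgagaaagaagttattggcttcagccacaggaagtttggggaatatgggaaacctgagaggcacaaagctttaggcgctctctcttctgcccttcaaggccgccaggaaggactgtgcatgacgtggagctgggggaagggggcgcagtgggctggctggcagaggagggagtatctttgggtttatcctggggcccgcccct
Timp3: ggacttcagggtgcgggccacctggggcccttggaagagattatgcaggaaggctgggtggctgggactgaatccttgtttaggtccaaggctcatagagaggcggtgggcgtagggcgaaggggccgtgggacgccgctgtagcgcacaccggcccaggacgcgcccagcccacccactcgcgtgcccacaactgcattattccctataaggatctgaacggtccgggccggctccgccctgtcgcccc
Mmp14: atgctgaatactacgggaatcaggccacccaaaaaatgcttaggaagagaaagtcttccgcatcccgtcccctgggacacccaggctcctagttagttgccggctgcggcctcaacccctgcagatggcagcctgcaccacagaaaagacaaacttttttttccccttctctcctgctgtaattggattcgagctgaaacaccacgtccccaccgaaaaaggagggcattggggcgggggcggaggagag

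The third are the stretches around TGANTCA in 7 MMP genes of chromosome 9, which were above background on 0 to 6 of the 14 arrays. Capitals mark TGANTCA, where N is any base, and TATAAA. Mmp20 holds TGAATCA, with A at N, and the other printed stretches hold G or C there. Chromosome 9 holds 11 of the 48 members, 8 of them MMPs, and in 7 of these 8 the 300-base window from 250 bases before to 50 after a start holds TGANTCA. All 8 hold TATAAA in a window, outside the printed stretch for Mmp12. The printed stretches are RefSeq sequence on the plus strand of GRCm38.p6 and end before the start. They lie at chr9:7502269-7502338 (Mmp10), chr9:7347320-7347373 (Mmp12), chr9:7272469-7272513 (Mmp13), chr9:7464058-7464127 (Mmp1a), chr9:7628126-7628195 (Mmp20), chr9:7445766-7445821 (Mmp3) and chr9:7692017-7692086 (Mmp7).
Mmp10: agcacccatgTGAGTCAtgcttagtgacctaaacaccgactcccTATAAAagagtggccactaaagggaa
Mmp12: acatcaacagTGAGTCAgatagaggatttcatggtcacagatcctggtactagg
Mmp13: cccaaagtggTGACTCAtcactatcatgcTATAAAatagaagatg
Mmp1a: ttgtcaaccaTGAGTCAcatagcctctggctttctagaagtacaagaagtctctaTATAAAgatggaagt
Mmp20: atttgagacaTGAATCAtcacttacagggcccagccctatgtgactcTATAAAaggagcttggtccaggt
Mmp3: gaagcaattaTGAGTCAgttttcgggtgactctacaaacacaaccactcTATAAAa
Mmp7: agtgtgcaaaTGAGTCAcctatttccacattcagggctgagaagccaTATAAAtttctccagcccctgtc

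In the RefSeq table of 32851 such windows, 7.81% hold TGANTCA and 13.6% hold TATAAA. The table had a window for 33 of the 48 members. Of these, 7 held TGANTCA, the chromosome 9 genes above, against 0 of the 25 members that are not chromosome 9 MMPs. Among 8 members with a window that passed the test in either genotype, 0 held TGANTCA and 1, Adamts1, held TATAAA. A match is a description of letters, and its absence says nothing of the factor.

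After coculture, Timp1, Timp2, Adamts1 and Adamts2 rose and Timp3, Adamts15, Adamtsl1, Adamtsl3 and Adamtsl4 fell in both genotypes. Adamts10 fell in cells labelled knockout, and Mmp14 and Mmp2 rose in cells labelled wild-type, but the difference between the genotypes passed for none of the 3. In cells labelled knockout, 4 of the 28 rose, 6 fell and 18 did not pass. This is 35.7% of the members tested, beside 14.7% of all 15848 genes tested, 8.56% higher and 6.09% lower. The count over all genes moved with single arrays: it was 1058 to 1538 without knockout cocultured 1 or 2 or knockout BMMC 1, 2 or 3, and 3301 without knockout cocultured 3. Cells labelled wild-type gave 6 that rose, 5 that fell and 17 that did not pass, which is 39.3% of the members, beside 12.8% of all genes, 6.48% higher and 6.34% lower, a count that was 1112 to 1189 without any 1 of the wild-type BMMC arrays. A call is an adjusted p under 0.05 by limma with Benjamini-Hochberg adjustment over all genes. Of the genes above, 9 passed in both genotypes, all 9 in the same direction. Apart from Timp1, the probes of the genes that passed in either genotype lie, on mm9, at chr11:118163146-118163205 (Timp2), chr10:85811696-85811755 (Timp3), chr8:95376840-95376899 (Mmp2), chr14:55059969-55060028 (Mmp14), chr16:85795044-85795103 (Adamts1), chr11:50617472-50617531 (Adamts2), chr17:33690213-33690272 (Adamts10), chr9:30707033-30707092 (Adamts15), chr4:86073485-86073544 (Adamtsl1), chr7:89762009-89762068 (Adamtsl3) and chr3:95480524-95480583 (Adamtsl4). The arrays did not overlap for 14 of the 28 in cells labelled knockout (28.5% of all genes) and for 12 in cells labelled wild-type (25.6%). The median log2 difference of the 28 was -0.09 in cells labelled knockout (0.10 over all genes) and 0.28 in cells labelled wild-type (-0.01 over all genes). It was 0 in cells labelled knockout and 0.08 in cells labelled wild-type when the genes with a group entirely below background, 10 with the knockout label and 9 with the wild-type label, were set to their bound, or to 0 where no fold could be given.

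**Figure D2:**
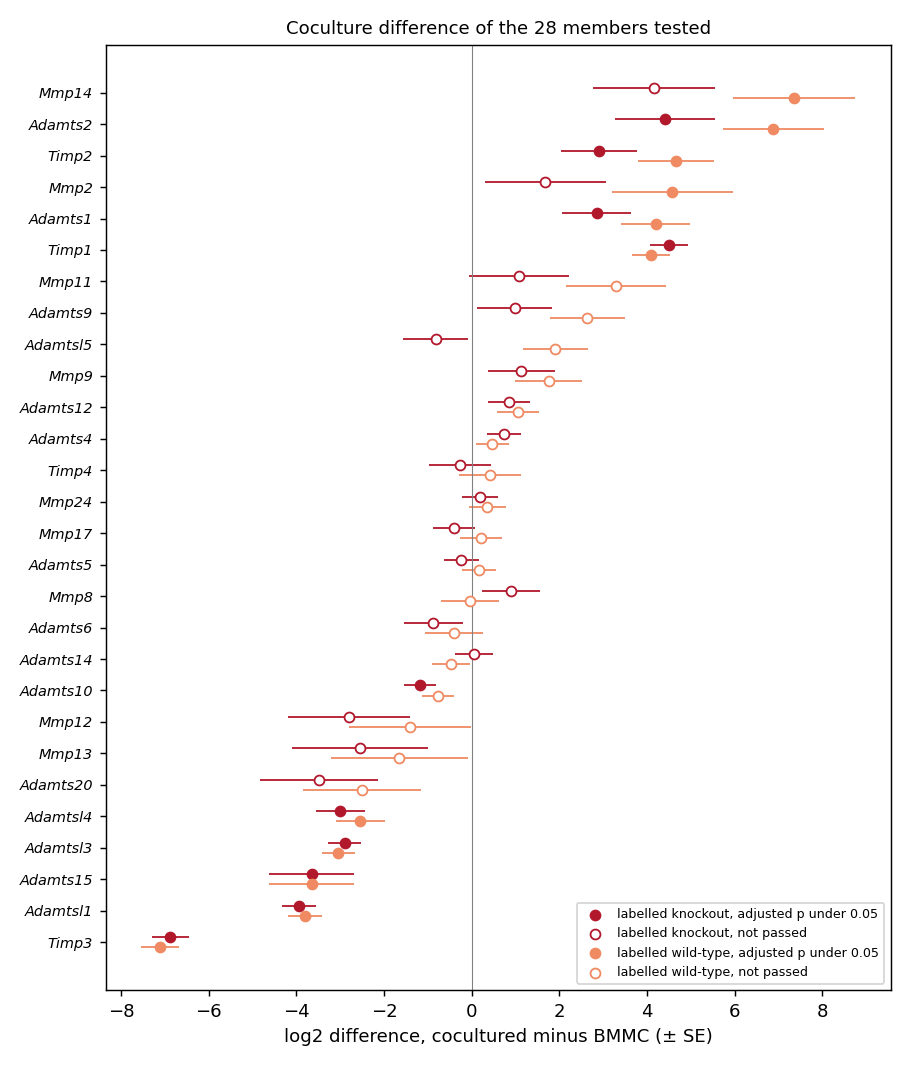
Log2 difference of cocultured cells minus BMMCs, with its standard error, for the 28 members tested, ordered by the difference in cells labelled wild-type. Filled points passed an adjusted p under 0.05, open points did not: Timp3 lies lowest in both genotypes and Mmp14 highest in cells labelled wild-type. Differences are those of the fit, so a gene with a group below background, such as these 2, has no exact size here and its bound is given in the text.

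The TIMPs moved in opposite directions. Timp1, a soluble inhibitor of most MMPs, was at 2.25, 2.82 and 1.34 on cocultured arrays labelled knockout, against -2.82, -2.49, -2.37 and -1.79 on BMMC arrays. In cells labelled wild-type it was at 1.46, 2.27, 2.42 and 0.78 after coculture, against -2.73, -2.33 and -2.03 before. Every cocultured array lay above every BMMC array by more than the whole spread within the groups. The log2 difference was 4.51 (SE 0.44, adjusted p = 5.65e-05) in cells labelled knockout and 4.09 (SE 0.44, adjusted p = 8.93e-05) in cells labelled wild-type. Its other probe, printed above, was above background on the 7 cocultured arrays and below it on the 7 BMMC arrays. It was at least 8.86-fold higher in knockout cocultured cells and at least 6.52-fold higher in wild-type cocultured cells. Within the slides that held both conditions the difference was 5.07, 5.32 and 3.13 in cells labelled knockout and 3.80 and 3.55 in cells labelled wild-type.

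Timp2 inhibits MMPs and, together with Mmp14, takes part in activating the Mmp2 precursor. On the arrays labelled knockout it was at -0.01, 0.35 and 1.41 after coculture, against -1.02, -2.75, -3.59 and -1.94 before. The arrays labelled wild-type gave 2.19, 3.93, 0.02 and 2.14 after coculture, against -3.60, -1.01 and -3.17 before. The groups did not overlap, but cocultured arrays ranged widely, with wild-type cocultured 2 the highest. Timp2 rose by 2.91 (SE 0.87, adjusted p = 0.0416) in cells labelled knockout and by 4.67 (SE 0.87, adjusted p = 0.004) in cells labelled wild-type. The call in cells labelled knockout held only when wild-type BMMC 1 or 2, knockout BMMC 1 or wild-type cocultured 2 or 3 was left out, and the other 9 omissions gave 2.49 to 3.21 with adjusted p = 0.0506 to 0.104. The slide as a fixed block also ended it (2.93, adjusted p = 0.0838), as did testing probes without the background filter (2.91, adjusted p = 0.0697) and normexp with quantile normalization (1.33, adjusted p = 0.169).

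Timp3, the matrix-bound inhibitor that also blocks ADAMTS proteases and shedding enzymes such as ADAM17, was the gene of the set that fell furthest. Its level was -4.42, -4.99 and -5.46 on cocultured arrays labelled knockout, against 1.82, 1.94, 1.57 and 2.33 on BMMC arrays. In cells labelled wild-type it was -6.22, -4.52, -4.20 and -4.88 after coculture, against 1.99, 1.99 and 2.48 before. All 7 cocultured arrays were below background and all 7 BMMC arrays above it. Against the lowest signal called above background, Timp3 was at least 60.4-fold lower in cells labelled knockout (adjusted p = 1.84e-06) and at least 70.2-fold lower in cells labelled wild-type (adjusted p = 8.67e-07). Timp4 was above background on 4 of 14 arrays, none of them knockout cocultured, and did not pass in either genotype, with adjusted p = 0.841 in cells labelled knockout and a log2 difference of 0.41 (SE 0.71, adjusted p = 0.78) in cells labelled wild-type. Its levels were -3.87, -4.31 and -4.20 in knockout cocultured cells, -3.98, -2.71, -3.91 and -2.97 in wild-type cocultured cells, -3.95, -4.23, -2.55 and -4.68 in knockout BMMCs and -5.48, -4.06 and -1.88 in wild-type BMMCs.

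**Figure D3:**
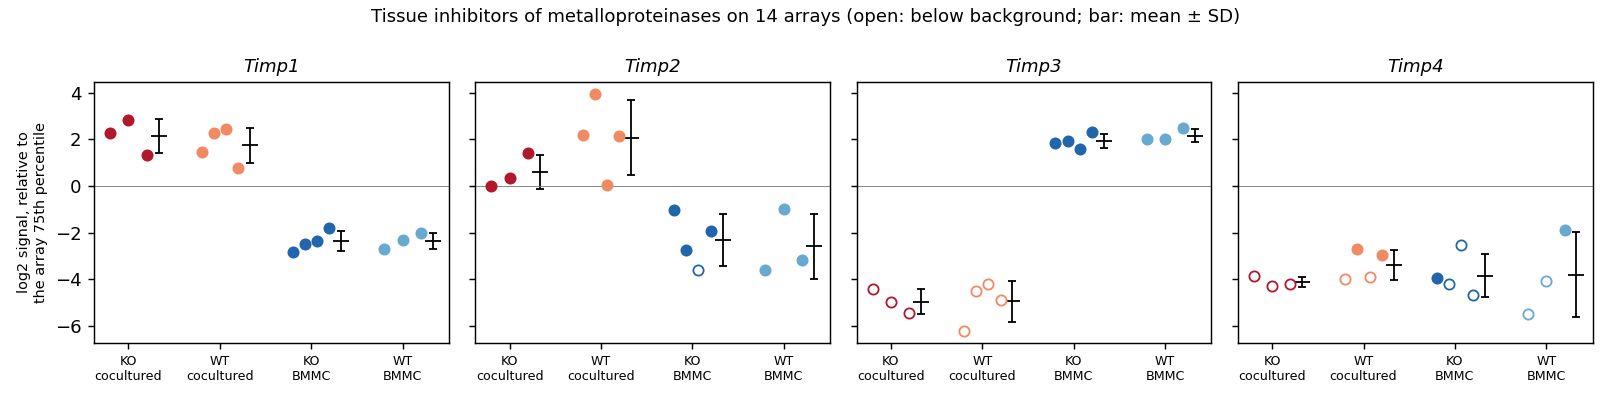
Level of the 4 TIMPs on each array, by group, in log2 signal relative to the 75th percentile of the array, with open points below background and bars at the mean ± SD. Timp1 lies between 0.78 and 2.82 on the 7 cocultured arrays and between -2.82 and -1.79 on the 7 BMMC arrays, and Timp3 has only open points after coculture.

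Among the MMPs, 2 of the 9 tested rose in cells labelled wild-type (12.8% of all genes passed there in either direction). In cells labelled knockout 0 passed by limma (14.7% of all genes), with 1, Mmp14, at an unadjusted p under 0.05. The interaction passed for none of the 9. Mmp14, a membrane-anchored collagenase at the cell surface, was at -2.85, -1.68 and 1.71 on knockout cocultured arrays, against -4.07, -5.58, -4.87 and -5.87 on knockout BMMC arrays. Of these BMMC arrays only knockout BMMC 1, at -4.07, was above background, so the differences below with the knockout label are not exact sizes. The level of Mmp14 was 2.43, 4.68, -2.27 and 3.17 on wild-type cocultured arrays, against -5.86, -4.16 and -6.03 on wild-type BMMC arrays, where it was below background. Cocultured arrays fell into a high set of 4 (wild-type 1, 2 and 4, and knockout 3) and a low set of 3. The log2 difference in cells labelled knockout was 4.16 (SE 1.39, adjusted p = 0.0628), and in cells labelled wild-type Mmp14 was at least 63.4-fold higher (adjusted p = 0.00432). Without the slide 4 pair both passed, at a log2 difference of 2.83 in cells labelled knockout and at least 170-fold higher in cells labelled wild-type. The other Mmp14 probe did not pass in either genotype, with adjusted p = 0.423 in cells labelled knockout and 0.105 in cells labelled wild-type over all probes.

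Mmp2, the gelatinase that Mmp14 activates, was at -5.21, -4.85 and -1.93 on knockout cocultured arrays, against -5.34, -6.29, -4.96 and -6.15 on knockout BMMC arrays. It was at -0.90, 1.51, -6.26 and -0.42 on wild-type cocultured arrays, against -5.88, -6.23 and -6.20 on wild-type BMMC arrays. The same 4 cocultured arrays were above background and no other array was. In cells labelled knockout Mmp2 did not pass (adjusted p = 0.448). In cells labelled wild-type Mmp2 was at least 5.53-fold higher (adjusted p = 0.0447), although wild-type cocultured 3 lay below every BMMC array of that label. The call held only when wild-type cocultured 3 or knockout cocultured 3 was left out, and the other 12 omissions gave adjusted p = 0.0532 to 0.125. The slide as a fixed block ended it too (adjusted p = 0.0782), as did testing without the background filter (0.0667) and normexp with quantile normalization (0.0812). Mmp11, a stromal MMP, was above background on those 4 arrays only, at -3.11 on knockout cocultured 3 and at -2.72, 0.51 and -1.29 on wild-type cocultured 1, 2 and 4. It passed in neither genotype, with adjusted p = 0.572 in cells labelled knockout and adjusted p = 0.0781 in cells labelled wild-type.

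The other MMPs tested showed no call. Mmp17, a membrane MMP with a lipid anchor, was above background throughout with the chosen probe. Its level there was between -3.66 and -2.70 in knockout cocultured cells and -3.32 and -1.90 in wild-type cocultured cells. It was between -3.34 and -2.10 in knockout BMMCs and -3.59 and -1.70 in wild-type BMMCs. Mmp8, a neutrophil collagenase, was above background on 12 arrays and highest on wild-type BMMC 2, at -0.15. Mmp12, a macrophage elastase, and Mmp13, a collagenase, were above background on knockout BMMC 1, 2 and 4 and on wild-type BMMC 2 among the BMMC arrays, and below it on the other 3. Mmp12 was at -0.29, -1.11, -4.77 and -1.05 in knockout BMMCs and -5.76, 0.42 and -6.05 in wild-type BMMCs. Mmp13 was at -0.70, -0.94, -4.85 and -2.75 in knockout BMMCs and -5.86, 1.22 and -6.09 in wild-type BMMCs. Wild-type BMMC 2 was the highest of the 14 for Mmp8, Mmp12 and Mmp13. The summed signal of 9 macrophage markers tested of 13, in units of the 75th percentile, was 6.31 to 10.4 in knockout cocultured cells, 7.05 to 13.7 in wild-type cocultured cells, 7.01 to 16.2 in knockout BMMCs and 3.99 to 58.7 in wild-type BMMCs, with 58.7 on wild-type BMMC 2. The summed signal of the 2 neutrophil markers tested of 10 was 5.51 on that array, against 0.0686 to 0.236 on the other 13. The part of such cells in these values was not tested. Mmp9, the gelatinase of leukocytes, was above background on 3 arrays, all cocultured, and Mmp24, a membrane MMP, on 4.

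Of the 11 ADAMTS proteases tested, 2 rose and 2 fell in cells labelled knockout, and 2 rose and 1 fell in cells labelled wild-type. Of all genes, 8.56% rose and 6.09% fell with the knockout label, and 6.48% rose and 6.34% fell with the wild-type label. Adamts1, which cuts the proteoglycans versican and aggrecan, was at 0.14, 1.71 and 0.10 on knockout cocultured arrays, against -1.11, -2.99, -0.72 and -3.99 on knockout BMMC arrays. In wild-type cells it was at 0.95, 3.07, 0.50 and 1.12 after coculture, against -2.87, -3.10 and -2.40 before. The groups did not overlap in either genotype, and the BMMC arrays labelled knockout spread most. Adamts1 rose by 2.86 (SE 0.78, adjusted p = 0.0298) in cells labelled knockout and by 4.20 (SE 0.78, adjusted p = 0.00398) in cells labelled wild-type. Leaving out knockout BMMC 2 or 4 or knockout cocultured 1 or 2 ended the call in cells labelled knockout, at 2.26 to 3.11 with adjusted p = 0.0632 to 0.115, and so did normexp with quantile normalization (1.23, adjusted p = 0.111). A second Adamts1 probe, above background on no BMMC array, did not pass in cells labelled knockout (adjusted p = 0.0966 over all probes) and was at least 2.5-fold higher in cells labelled wild-type (adjusted p = 0.00636).

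Adamts2, which trims the amino end of fibrillar procollagens, was above background on all 7 cocultured arrays and on none of the 7 BMMC arrays. Cocultured levels were -2.94, -2.17 and -0.11 with the knockout label, against -6.63, -6.37, -4.86 and -6.77 in knockout BMMCs, and 1.22, 3.35, -3.03 and 1.61 with the wild-type label, against -5.87, -6.27 and -6.14 in wild-type BMMCs. The 4 highest were again wild-type 1, 2 and 4 and knockout 3. It was at least 4.58-fold higher in cells labelled knockout (adjusted p = 0.0238) and at least 27.3-fold higher in cells labelled wild-type (adjusted p = 0.00207). Leaving out knockout BMMC 1, 2 or 4 or knockout cocultured 2 or 3 ended the call in cells labelled knockout, with adjusted p = 0.0518 to 0.0645. Normexp with quantile normalization (adjusted p = 0.437) and the mean over all passing probes of the gene (adjusted p = 0.245) ended it too. Of the 3 other Adamts2 probes, 2 were tested and passed in neither genotype.

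Adamts15, a further versican-cutting protease, was at -5.55, -4.78 and -2.68 on knockout cocultured arrays, against -0.72, -1.85, -1.54 and 1.34 on knockout BMMC arrays. It was at -2.47, -6.26, -6.18 and -5.39 on wild-type cocultured arrays, against -1.08, -1.51 and -1.69 on wild-type BMMC arrays. It was above background on every BMMC array and on 1 cocultured array of each genotype. Adamts15 fell by 3.64 on the log2 scale in cells labelled knockout (SE 0.97, adjusted p = 0.0263) and fell by 3.65 in cells labelled wild-type (SE 0.97, adjusted p = 0.027). Leaving out knockout BMMC 1 or 4 or knockout cocultured 1 or 2 ended the call in cells labelled knockout, at -3.66 to -2.97 with adjusted p = 0.0566 to 0.116. Leaving out any wild-type BMMC array or wild-type cocultured 2, 3 or 4 ended it in cells labelled wild-type, at -3.78 to -3.25 with adjusted p = 0.0540 to 0.0914. Normexp with quantile normalization ended both calls, at -1.01 (adjusted p = 0.0753) with the knockout label and -0.66 (adjusted p = 0.242) with the wild-type label.

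Adamts10, which binds fibrillin, was at -2.50, -2.30 and -2.77 on knockout cocultured arrays, against -1.46, -1.12, -1.10 and -1.72 on knockout BMMC arrays. In wild-type cells it was at -2.39, -1.67, -3.27 and -1.53 after coculture, against -1.46, -1.55 and -1.31 before. It fell by 1.17 on the log2 scale in cells labelled knockout (SE 0.36, adjusted p = 0.0478). This call held only when wild-type cocultured 2, 3 or 4 was left out, and the other 11 omissions gave -1.29 to -1.05 with adjusted p = 0.0547 to 0.122. It was lost as well with median scaling, with quantile normalization, with and without normexp, and without the background filter, at adjusted p = 0.0539 to 0.101. A second Adamts10 probe did not pass, at -1.37 with adjusted p = 0.0502 in cells labelled knockout. The log2 difference in cells labelled wild-type was -0.77 (SE 0.36, adjusted p = 0.202).

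The aggrecan-cutting proteases Adamts4 and Adamts5 were above background on every array with the chosen probe and passed in neither genotype. A second Adamts5 probe was above background on 1 array. Adamts4 was at -0.64, -0.51 and -0.69 in knockout cocultured cells, -0.87, 0.76, -1.04 and -0.32 in wild-type cocultured cells, -1.41, -1.25, -1.37 and -1.37 in knockout BMMCs and -0.28, -0.88 and -1.37 in wild-type BMMCs. Adamts5 was at -0.75, 0.06 and -0.09 in knockout cocultured cells, -0.10, 0.40, -0.84 and 0.05 in wild-type cocultured cells, 0.59, -0.39, 0.52 and -0.82 in knockout BMMCs and -0.61, 0.07 and -0.33 in wild-type BMMCs. The Adamts5 groups overlapped in every comparison. Adamts14, like Adamts2 a procollagen protease, was at -2.28, -2.55 and -2.81 in knockout cocultured cells, -2.26, -2.05, -2.78 and -1.95 in wild-type cocultured cells, -2.63, -2.55, -1.97 and -3.27 in knockout BMMCs and -2.28, -2.45 and -0.63 in wild-type BMMCs, with no call. Adamts9, another versican-cutting protease, was highest on wild-type cocultured 2 and 4 at 0.55 and 0.88 and did not pass, with a log2 difference of 0.98 (SE 0.86, adjusted p = 0.487) in cells labelled knockout and a log2 difference of 2.64 (SE 0.86, adjusted p = 0.0629) in cells labelled wild-type. A second Adamts9 probe, above background on no BMMC array, was at least 14.1-fold higher in wild-type cocultured cells (adjusted p = 0.0046 over all probes). Adamts6, Adamts12 and Adamts20 did not pass.

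Of the 4 ADAMTS-like genes tested, the same 3 fell with the knockout label (6.09% of all genes) and the wild-type label (6.34%). Adamtsl1 was at -5.08, -5.66 and -5.30 on knockout cocultured arrays, against -1.72, -1.01, -1.78 and -1.11 on knockout BMMC arrays. It was at -5.89, -6.09, -6.13 and -4.78 on wild-type cocultured arrays, against -2.62, -1.45 and -1.69 on wild-type BMMC arrays. Every cocultured array was below background, so it was at least 6.05-fold lower in cells labelled knockout (adjusted p = 5.61e-05) and at least 4.16-fold lower in cells labelled wild-type (adjusted p = 6.12e-05). A second Adamtsl1 probe, also below background on every cocultured array, was at least 2.03-fold lower in cells labelled knockout (adjusted p = 0.0183 over all probes) and did not pass in cells labelled wild-type (adjusted p = 0.141).

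Adamtsl3 stayed above background after coculture, at -1.26, -0.88 and -0.57 on knockout arrays, against 1.79, 1.88, 1.68 and 2.61 on knockout BMMC arrays. With the wild-type label it was at -2.05, -1.24, -0.24 and -0.81 after coculture, against 2.0, 1.96 and 1.90 before. The BMMC arrays lay close together and above every cocultured array. It fell by 2.89 on the log2 scale in cells labelled knockout (SE 0.38, adjusted p = 0.00052) and by 3.04 in cells labelled wild-type (SE 0.38, adjusted p = 0.000272). Its other probe, at chr7:89614198-89614257 on mm9 against chr7:89762009-89762068, did not pass, with log2 differences of -0.63 in cells labelled knockout and -0.64 in cells labelled wild-type. The fall was thus seen with 1 of 2 probes, both above background on all 14 arrays.

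Adamtsl4, a fibrillin-binding protein, was at -3.63, -4.16 and -6.11 on knockout cocultured arrays, against -1.57, -1.74, -1.66 and -1.59 on knockout BMMC arrays. It was at -5.61, -3.65, -4.18 and -4.54 on wild-type cocultured arrays, against -1.50, -2.67 and -1.71 on wild-type BMMC arrays. Only wild-type cocultured 2 was above background after coculture. It was at least 5.14-fold lower in cells labelled knockout (adjusted p = 0.00432) and fell by 2.54 on the log2 scale in cells labelled wild-type (SE 0.56, adjusted p = 0.01). Without wild-type BMMC 1 the call in cells labelled wild-type was lost, at -2.31 with adjusted p = 0.0503. Adamtsl5 was above background on 3 arrays and did not pass.

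**Figure D4:**
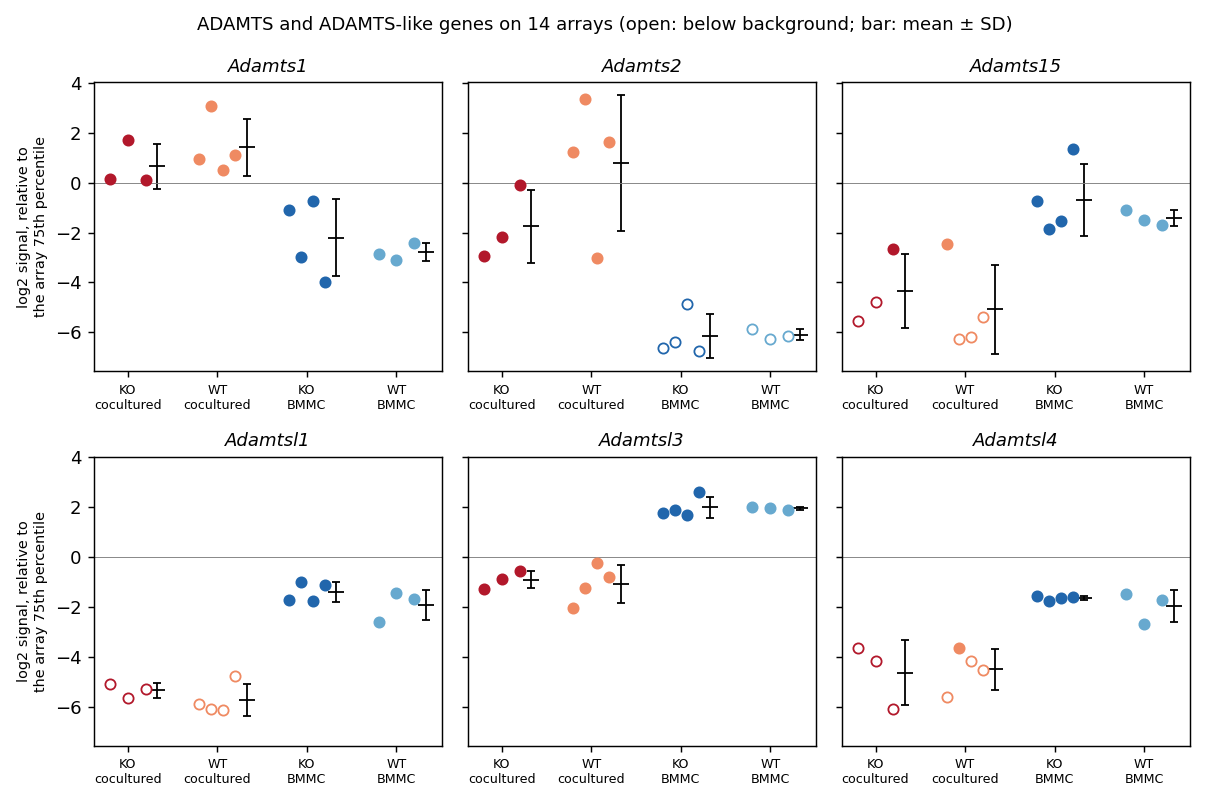
Level of 6 ADAMTS and ADAMTS-like genes on each array, by group, in log2 signal relative to the 75th percentile of the array, with open points below background and bars at the mean ± SD. Adamts1 and Adamts2 lie higher on the cocultured arrays and Adamts15, Adamtsl1, Adamtsl3 and Adamtsl4 lower, and Adamts2 spans -3.03 to 3.35 among the cocultured arrays.

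Fibroblast genes were present in the cocultured arrays and varied between them. Of 19 fibroblast markers tested, 10 rose in cells labelled knockout (8.56% of all genes) and 15 in cells labelled wild-type (6.48%), and 0 fell. Their summed signal, in units of the 75th percentile, was 15.7 to 65.9 on knockout cocultured arrays, 17.4 to 456 on wild-type cocultured arrays, 0.594 to 2.54 on knockout BMMC arrays and 0.739 to 1.09 on wild-type BMMC arrays. The mean level of the 19 was -2.32, -1.55 and 0.26 on knockout cocultured arrays and 0.98, 2.98, -2.20 and 1.20 on wild-type cocultured arrays. Mmp14, Mmp2, Mmp11 and Timp2 had their 4 highest values on the 4 arrays with the highest marker level, as did Adamts2. Timp1 did not follow that order: it was at 2.25, 2.82 and 2.42 on the 3 cocultured arrays with the lowest marker level and at 0.78 to 2.27 on the other 4, on this log2 scale. Adamts1 did not follow it either, at 0.14, 1.71 and 0.50 on the same 3 arrays and 0.105 to 3.07 on the other 4. Timp3, Adamtsl1 and Adamtsl3 were lower than in BMMCs on all 7. In bulk RNA, more cells of a type and more RNA per cell cannot be told apart, and the part of feeder RNA in these rises was not tested.

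**Figure D5:**
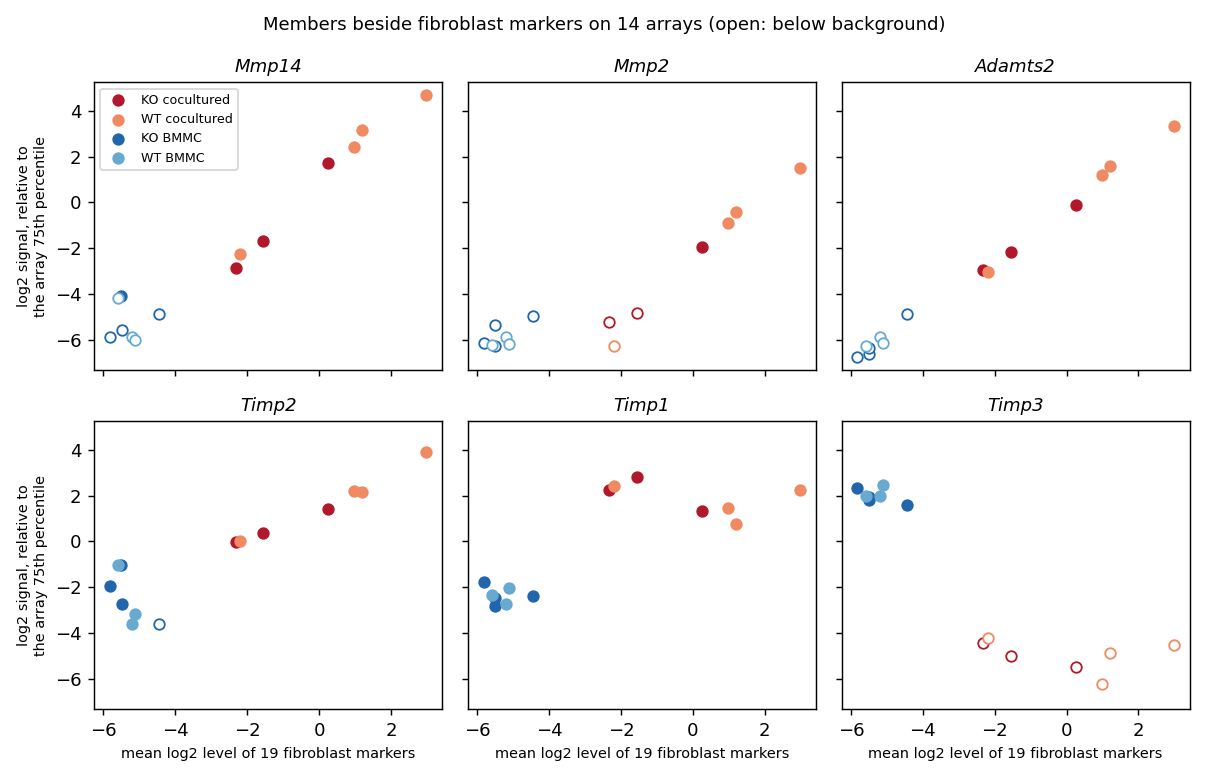
Level of Mmp14, Mmp2, Adamts2, Timp2, Timp1 and Timp3 (vertical, log2 signal relative to the 75th percentile of the array) beside the mean level of 19 fibroblast markers on the same array (horizontal, same scale), with open points below background. Mmp14, Mmp2, Adamts2 and Timp2 reach their highest values at the right, on wild-type cocultured 2 with a marker level of 2.98, whereas Timp1 lies between 0.78 and 2.82 on all 7 cocultured arrays.

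No member passed between the genotype labels by limma. In BMMCs 0 of the 28 passed (0% of all genes, 1.07% at an unadjusted p under 0.05), 0 at an unadjusted p, and 1, Adamtsl5, did not overlap (3.84% of all genes). Adamtsl5 was above background on 1 knockout BMMC array and 0 wild-type BMMC arrays, so this mostly separates values below background. In cocultured cells 0 passed (0% of all genes, 3.84% unadjusted) and 0 were without overlap (1.77%), with Adamts2 and Adamts9 at an unadjusted p of 0.0468 and 0.0286. The interaction, the coculture difference with the knockout label minus that with the wild-type label, passed for 0 (0% of all genes, 0.789% unadjusted). Adamtsl5, above background on 3 arrays only, was at an unadjusted p of 0.0224 there. In cocultured cells Timp1 differed by 0.406 (SE 0.44) on the log2 scale, knockout minus wild-type.

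Without the slide 4 pair, the 10 genes called after coculture in cells labelled knockout were called again, with Mmp14 besides, and so were the 11 in cells labelled wild-type, with Mmp9, Mmp11, Adamts9 and Adamts12 besides. Calls rose over all genes too. In cells labelled knockout 31.3% of all genes then passed, against 14.7% with the pair. In cells labelled wild-type 23.1% passed, against 12.8%. Among the TIMPs, the log2 difference in cells labelled knockout was then 4.91 for Timp1 and 2.50 for Timp2, and Timp3 was at least 51.2-fold lower. In cells labelled wild-type it was 3.87 for Timp1 and 5.35 for Timp2, and Timp3 was at least 70.2-fold lower. Adamts15 was then at least 8.42-fold lower in cells labelled knockout and fell by 3.28 on the log2 scale in cells labelled wild-type. Adamts2 was at least 2.60-fold higher in cells labelled knockout and at least 66.0-fold higher in cells labelled wild-type. Mmp2 was below background on all knockout arrays left and at least 16.5-fold higher in cells labelled wild-type.

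The pair bore more on the comparison between labels. Mmp14 in cocultured cells differed between the labels, knockout minus wild-type, by -4.11 on slide 2 and by 3.99 on slide 4, where all 4 arrays were above background. Without the pair, 5 members passed as lower with the knockout label. Mmp14, at a log2 difference of -5.69 (SE 0.78), and Adamts2, at -4.62 (SE 0.67), were above background on all 5 cocultured arrays left. For the other 3, both knockout arrays left were below background, so Mmp2 was at least 14.2-fold lower (adjusted p = 0.00128), Mmp11 at least 6.05-fold lower and Mmp9 at least 1.19-fold lower. The interaction then passed for Mmp2, Mmp14 and Adamts2, and no size is given because BMMC groups lay below background. With the pair left out, 25% of all genes passed between the labels and 12.1% for the interaction. The fibroblast marker level was -2.32 and -1.55 on the 2 knockout arrays left, against 0.98 to 2.98 on the 3 wild-type arrays left. Leaving out libraries because they stood apart is a choice made with these data known.

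Genes that act with the family were counted from lists, and of each up to 4 with the lowest adjusted p in cells labelled wild-type are given. Of 21 activators and surface regulators tested, 4 rose with the knockout label (8.56% of all genes) and 6 with the wild-type label (6.48%). None of the 21 fell. Plaur, the urokinase receptor, rose by 2.86 in cells labelled knockout and 2.79 in cells labelled wild-type on the log2 scale. Pcolce, an enhancer of procollagen processing, rose by 4.04 in cells labelled knockout and 5.48 in cells labelled wild-type on the same scale. Serpine2, an inhibitor of thrombin, had adjusted p = 0.165 in cells labelled knockout and was at least 6.03-fold higher in cells labelled wild-type.

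Of 15 substrates tested, 7 rose in cells labelled knockout (8.56% of all genes) and 11 in cells labelled wild-type (6.48%), and 0 fell. Dcn, a collagen-binding proteoglycan, was at least 57.2-fold higher in cells labelled knockout and at least 150.0-fold higher in cells labelled wild-type. The fibrillar collagen gene Col3a1 was at least 64.4-fold higher in cells labelled knockout and at least 372-fold higher in cells labelled wild-type. Col1a1, which encodes a chain of type I collagen, was at least 46.3-fold higher in cells labelled knockout and at least 248-fold higher in cells labelled wild-type. Col1a2, which encodes the other chain, rose by 5.16 with the knockout label and 7.53 with the wild-type label on the log2 scale. Several of these are fibroblast markers too, so this list and the marker list are not independent.

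Of 11 inducers tested, 6 rose and 1 fell in both genotypes. Of all genes, 8.56% rose and 6.09% fell with the knockout label, and 6.48% rose and 6.34% fell with the wild-type label. Osmr, a receptor subunit for oncostatin M, was at least 38.6-fold higher in cells labelled knockout and at least 113-fold higher in cells labelled wild-type. Il1r1, the IL-1 receptor, was at least 28.1-fold higher in cells labelled knockout and at least 66.1-fold higher in cells labelled wild-type. Fosl1, an AP-1 subunit, rose by 5.65 with the knockout label and was at least 12.4-fold higher with the wild-type label. Tnf, a cytokine that induces MMPs, rose by 4.71 with the knockout label and 3.67 with the wild-type label on the log2 scale. The ETS factors Ets1 and Ets2 rose in both genotypes. Osm, the ligand of Osmr, was the 1 that fell, at -2.77 with the knockout label and -2.68 with the wild-type label. Ets1, Ets2 and Osm were named after their values were seen.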

How the data were processed

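RNA of 14 samples was labelled with Cy3 and hybridised to 1-colour arrays on 4 slides, 1 sample an array. Per the file headers, Agilent Feature Extraction 9.5.1.1 made each intensity (detrended and background-subtracted within the array) and its flags for spots above background. The authors' deposited table of normalized intensity was read as the raw value minus 1 constant per array and served as an alternative. Only the median of that difference over probes was computed for each array, not its spread.

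Here log2 of the deposited intensity was taken, outlier spots were dropped, spots of a probe were averaged and the 75th percentile of the array was subtracted. Genes were tested where a probe was well above background on at least 3 arrays, 1 probe a gene by highest mean. One limma fit (limma 3.58.1, R 4.3.3) over the 4 groups gave 5 contrasts, adjusted by Benjamini-Hochberg over 15848 genes and called under 0.05. The fit was tested on simulated data. Where a group had 0 arrays above background, a fold is given as "at least", taken against the higher, per array, of the lowest signal called above background and the probe's own signal. Array design names were updated through RefSeq by accession for 24844 probes, by symbol for 6045 and by synonym for 1810, and 8475 kept the file's name.

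Values per array are given for genes called in any contrast, every TIMP and genes above background on all 14 arrays. Of each list of related genes, up to 4 are given by lowest adjusted p in cells labelled wild-type, and 1 listed gene is not reported here. Members and lists were chosen with earlier results of these data known. Same-numbered BMMC samples deviated together (r = 0.197, 0.499 and 0.487) and share slides, same-numbered cocultured samples did not (-0.434, -0.149 and -0.547), so the replicate number is no block in the main fit. Alternatives were other scalings, background correction, filters, probe rules, slide or replicate blocks, and samples left out.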

Additional observations from a re-analysis of the deposited data

Results flagged for a closer look

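In groups of 4 arrays, 57 sets of values were examined for 1 array far from the rest, and chance flags about 1 in 20. Both that met the rule were on knockout BMMC 3, the array with the lowest share of probes above background (42.6%). Mmp15, a membrane MMP, was at 3.70 there and between -6.72 and -6.15 on the other knockout BMMC arrays, all below background, and was above background on no other array. Adamts12, a protease of cartilage matrix, was at -3.45 there, below background, and between -3.05 and -3.02 on the other 3.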

How the results depend on the processing

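In cells labelled knockout the count of members called after coculture was 10. It was 5 with normexp and quantile normalization, 3 with the authors' normalized values and 5 with the replicate number as a block, which ended the calls of Timp2, Adamts1, Adamts2, Adamts10 and Adamts15, and 5 to 11 when 1 array was left out: 5 without knockout BMMC 4, 5 without knockout cocultured 2, 6 without knockout BMMC 2 and 6 without knockout cocultured 1. Over all 15848 genes the count with the knockout label was 2322. It was 1968 with normexp, 656 with the authors' values and 1254 with the replicate block. It was 1772 without knockout BMMC 4, 1526 without knockout cocultured 2, 1367 without knockout BMMC 2 and 1058 without knockout cocultured 1. In cells labelled wild-type 11 members were called, against 3 with the authors' values, 10 with the replicate block, which ended the call of Mmp2, and 8 to 13 with 1 array left out. Over all genes the wild-type count was 2031, against 801 with the authors' values and 1342 with the replicate block. The authors' values lie below 0 for 59.0% to 59.8% of probes and were floored at 10 units, which put all 28 members at the floor on at least 7 arrays and 12 on all 14. Without the slide 4 pair, 5 members passed between the labels in cocultured cells and 3 in the interaction, against 0 with it. Of all genes, 25% and 12.1% then passed in these comparisons. After coculture, 11 members passed in cells labelled knockout (31.3% of all genes) and 15 in cells labelled wild-type (23.1% of all genes). The cause was not tested. Comparisons between the labels gave 0 calls with each single array left out and in each other setting, the replicate block among BMMC arrays (added after seeing the data) included. Timp1, Timp3 and Adamtsl3 were called in both genotypes in every setting and omission, and no called gene took the opposite sign. With the authors' floored values the difference was 0, without direction, for Adamts2, Adamts10, Adamtsl1 and Adamtsl4 with the knockout label. The same held for Adamts15, Adamtsl1 and Adamtsl4 with the wild-type label. Median scaling moved the median of all genes by -0.19 in the coculture contrast of cells labelled wild-type, 0.27 between the labels in cocultured cells and 0.22 in the interaction. Many members lie near background, where a level is a bound, and groups of 3 or 4 arrays limit the precision.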
